A study of Mus musculus with 2 samples.

Results

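The cytosolic ribosomal protein genes are described here in mouse forebrain precursor cells with and without an HMGN1 retrovirus. Members were the genes with at least 1 probe set whose platform annotation gives a single symbol of the form Rpl or Rps followed by a number, with an optional a, l, x or y, together with Rplp0, Rplp1, Rplp2 and Rpsa. The rule took 59 of the 19938 genes in the table, through 215 probe sets. Of these, 37 belong to the large subunit and 22 to the small subunit. The rule used names only and no measured value. In all, 56 members had a signal above the detection floor and 3 did not.

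The cells were neural precursors taken from the forebrain of Jcl:ICR mouse embryos at E11.5 and grown with FGF2 and EGF. They received a control retrovirus or a retrovirus for HMGN1, a protein that binds nucleosomes. At 3 days after infection both cultures were replated, and FGF2 and EGF were then left out for 1 day, so withdrawal of the growth factors is common to both samples. There was 1 array per virus, and the sources used here do not give the share of cells that carried the virus.

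Each ribosome is a small subunit that reads the messenger RNA and a large subunit that joins amino acids, and each ribosomal protein is normally present in a single copy per subunit except in the stalk. The genes are used in every cell, their mRNAs typically begin with a short pyrimidine stretch through which growth signals control translation, and several of their introns hold small nucleolar RNAs. In neural precursors, ribosome production is high while cells divide and is known to decline as neurons differentiate. Processed copies of these genes are scattered through the genome, so a probe set can catch a copy as well as the gene.

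The pyrimidine start is shown here because it is the sequence feature that the family is best known for. The RefSeq promoter table (GRCm38.p6) held 56 start sites for 47 of the 59 members. A C at the annotated start followed by at least 4 pyrimidines stood at 10 of those 56 starts (17.9%), against 823 of all 32851 starts in the table (2.51%). Each line gives 30 bases before and 20 bases from the annotated start, with the pyrimidine run in capitals where the pattern was met. The first 6 genes have it, in order from the lowest to the highest difference between the arrays, and Rpl23, second only to Rps4l among the highest differences, does not have it at its annotated start.
Rpl14, chr9:120571487-120571536, + strand: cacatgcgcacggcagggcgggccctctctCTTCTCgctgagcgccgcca
Rps10, chr17:27635225-27635274, - strand: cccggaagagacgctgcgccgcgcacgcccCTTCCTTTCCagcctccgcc
Rpl38, chr11:114668550-114668599, + strand: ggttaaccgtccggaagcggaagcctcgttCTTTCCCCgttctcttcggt
Rps6, chr4:86857348-86857397, - strand: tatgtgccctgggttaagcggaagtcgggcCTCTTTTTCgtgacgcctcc
Rpl28, chr7:4792935-4792984, + strand: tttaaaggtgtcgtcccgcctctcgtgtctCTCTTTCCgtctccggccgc
Rps18, chr17:33955646-33955695, - strand: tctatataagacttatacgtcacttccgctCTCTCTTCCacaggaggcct
Rpl23, chr11:97782420-97782469, - strand: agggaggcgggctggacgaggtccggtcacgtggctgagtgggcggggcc

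The run is 10 bases in Rps10, 9 in Rps6 and Rps18, 8 in Rpl38 and Rpl28, and 6 in Rpl14. A looser search, for a run of at least 8 pyrimidines between 20 bases before and 30 bases after the start, matched 24 of the 56 member starts (42.9%) and 19.0% of all starts. The ETS factor motif CCGGAAG, on either strand anywhere in the 300 bases of the table, matched 19 member starts (33.9%) and 8.86% of all starts. TATAAA matched 6 member starts (10.7%, against 13.6%) and GGGCGG matched 31 (55.4%, against 35.7%). Annotated starts can lie some bases from the start used in these cells, so a missing pattern says only that the letters are not in the window.

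Ribosomal protein mRNAs differed little between the virus samples. Differences are given as HMGN1 virus minus control virus on the log2(intensity + 16) scale, and with 1 array per virus they have no replicate error and no test. The median difference over the 56 detected members was -0.032, where that of all 11325 detected genes was 0.027. Of the 56 members, 37 were lower and 19 higher in the HMGN1 virus sample, and 38.4% of all detected genes were lower and 60.1% higher. The median stayed below 0 under each alternative run, between -0.0066 and -0.059, but after quantile normalization the split was 30 lower and 24 higher, with 41.0% of all detected genes lower. After centring on all detected genes 42 members were lower and 14 higher, where by construction as many detected genes were lower as higher (5662 each). No member reached 1.5-fold in either direction (0.0706% of detected genes were that much lower and 0% that much higher). None reached a log2 difference of 0.32 in size either, where 0.521% of detected genes were lower and 0.494% higher by that much.

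At 1.1-fold, a log2 difference of 0.14, 1 member was lower (Rpl14) and 1 was higher (Rps4l), with 7.2% of all detected genes lower and 13.1% higher by that size. As a yardstick, when several probe sets measured the same gene on this pair of arrays, their log2 differences had a pooled SD of 0.092 over 667 genes. Of the 56 members, 49 (87.5%) lay within that SD of 0, as did 60.5% of all detected genes. Past it lay 5 members on the lower side and 2 on the higher side, with 13.6% and 25.9% of detected genes there. Between probe sets of the members alone the pooled SD was smaller, 0.042 over 37 genes, and fewer than 49 members lay within that of 0. The lower quartile of the members (-0.061) lay past this smaller SD, and the upper quartile (0.029) lay within it. The share of 87.5% therefore holds only for the SD over all genes. Without an offset, 54 of the 56 members differed by less than 10% between the arrays. In these whole cultures, fewer cells of a type and less RNA per cell cannot be told apart.

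In both samples, given as control virus and then HMGN1 virus, Hmgn1 itself had intensities of 229.7 and 348 (log2 difference 0.57). All 8 listed precursor markers were detected, with a summed intensity of 23174 and 23116. All 5 astrocyte markers were detected, with sums of 3412 and 3772. At least 1.1-fold higher were 4 of them, against 13.1% of all detected genes. Gfap had the highest difference of all detected genes (0.58), and Aldoc was lower (-0.072). Neuron markers summed to 7000.4 and 7179, but 3 of the 5 were lower (median -0.0062). Those of the oligodendrocyte lineage summed to 5064 and 5008, but 3 of the 5 were higher (median 0.055). Over all detected genes 38.4% were lower and 60.1% higher. The sums are carried by the brightest probe sets. Of markers of other cells, 1 of 5 microglia, 0 of 5 endothelial, 4 of 5 mesenchyme and 0 of 2 measured erythroid genes were above the floor, and no marker was at 0. The part of these cell types in the ribosomal protein values was not tested.

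**Figure D1:**
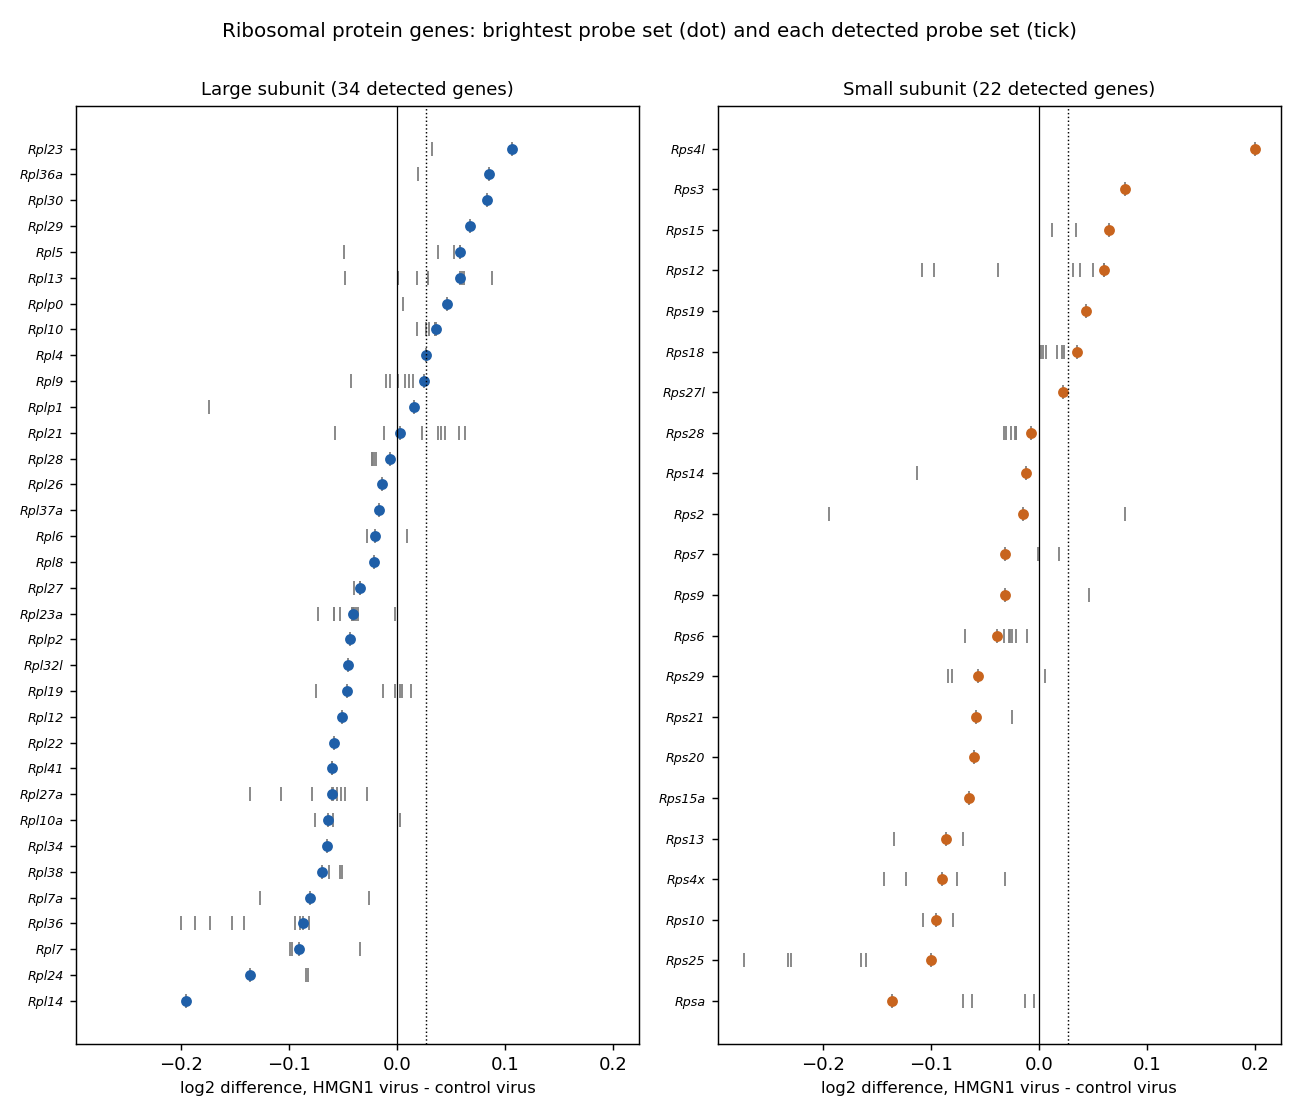
Log2 difference of each detected ribosomal protein gene, HMGN1 virus minus control virus, for 34 large subunit genes (left) and 22 small subunit genes (right). Dots are the brightest probe set of a gene, grey ticks are all its detected probe sets, the solid line is 0 and the dotted line is the median of all detected genes (0.027). The dots run from -0.20 for Rpl14 to 0.20 for Rps4l (the ticks of Rps25 reach -0.27).

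The subunits had nearly the same median, -0.028 over 34 large subunit genes and -0.032 over 22 small subunit genes. Within the large subunit 22 genes were lower and 12 higher, and within the small subunit 15 were lower and 7 higher. The signal of the members' brightest probe sets ran from 79.6 to 8768 on the control array and from 93.8 to 8537 on the HMGN1 array, with medians of 1715 and 1697. These signals are not compared between genes as RNA amounts. In all, 46 of the 56 detected members were in the brightest 10% of detected genes by signal. The other 1087 genes of that class had a median difference of 0.035, with 31.2% of them lower, and the 46 members had a median of -0.021, with 29 lower.

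**Figure D2:**
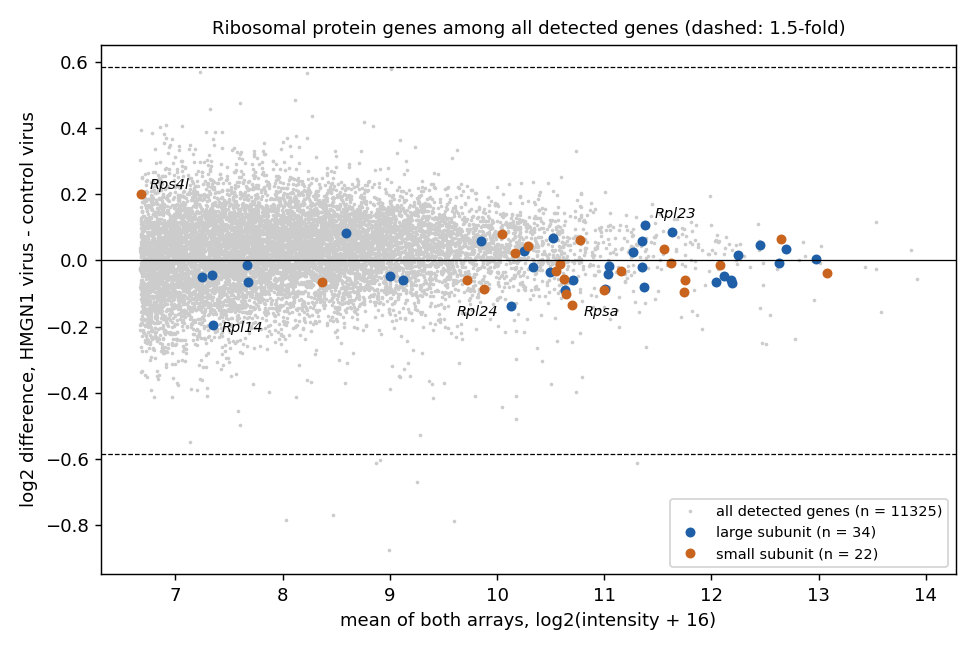
Log2 difference, HMGN1 virus minus control virus, against the mean of both arrays as log2(intensity + 16), for all 11325 detected genes (grey) and for the members of the large subunit (blue, 34) and small subunit (orange, 22). Dashed lines mark 1.5-fold. The members lie to the right, at high signal, and inside the dashed lines, with Rps4l and Rpl14 as the dim members farthest from 0.

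The lowest members came from both subunits. Rpl14, a large subunit protein, had an intensity of 158 in the control and 136 in the HMGN1 virus sample, a difference of -0.20 on its 1 probe set. Its signal lay above that of 26.5% of detected genes, so it is among the dimmer members. Rpl24, a large subunit protein at the bridge between subunits, had 1157 and 1051 (-0.14). All 3 of its probe sets were lower, between -0.14 and -0.083.

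Rpsa, a small subunit protein also known as a laminin receptor, had 1729.9 and 1573 (-0.14). All 5 of its probe sets were lower, but the dimmer ones came as close to 0 as -0.0050. Rps25, a small subunit protein used by some viral RNAs to start translation, had 1640.4 and 1529 (-0.10). Its 6 probe sets were all lower, from -0.27 to -0.10, so that its brightest probe set gave the smallest difference of the 6. The mean of its probe sets was -0.19.

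Next came Rps10 (3536 and 3310, -0.095), Rpl7 (1626 and 1526, -0.091), Rps4x (2094 and 1966, -0.090), Rpl36 (2099.7 and 1976, -0.087), Rps13 (950.3 and 894, -0.086) and Rpl7a (2698 and 2550.4, -0.081). Every probe set of these 6 genes was lower, including all 9 of Rpl36. The sign of Rpl7a turned to 0.025 when probe sets that list further symbols beside it were admitted. The other 5 kept a negative value under each alternative run. Rps10 lay just past the SD of 0.092 between probe sets, and the other 5 lay inside it.

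The highest value belonged to Rps4l, which RefSeq classes as a transcribed pseudogene. Its intensities were 79.6 and 93.8 (0.20), on either side of the detection floor of 85.9, so it passed only through the HMGN1 virus array. Its other probe set was under the floor and lower, at 85.2 and 80.4 (-0.071). Rpl23, a large subunit protein that binds the p53 regulator Mdm2 when free, had 2557 and 2754 (0.11), and its second probe set gave 0.032.

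Rpl36a (3071 and 3259, 0.085), Rpl30 (357 and 379.7, 0.083), Rps3 (1014 and 1073, 0.080), Rpl29 (1425 and 1493, 0.067), Rps15 (6247 and 6535, 0.065), Rps12 (1701 and 1775, 0.061), Rpl5 (2540.0 and 2645, 0.058) and Rpl13 (887 and 924, 0.058) followed. Of these, Rps3 lines the entry path of the mRNA and is also known in DNA repair. Both probe sets of Rpl36a and all 3 of Rps15 were higher, while Rpl5, Rpl13 and Rps12 had probe sets on both sides of 0. Rpl30, Rps3 and Rpl29 had 1 probe set each. The differences of these 8 genes and of Rpl23 were positive under each alternative run.

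Under the alternatives as a whole, 22 members had a negative value throughout, 14 a positive value throughout and 19 changed sign. The remaining member, Rpl41, the shortest ribosomal protein, reached 0 after quantile normalization. Its 3 probe sets held identical values (4716 and 4523, -0.060). The 5 brightest members were Rps6, the substrate of S6 kinase (8768 and 8537, -0.038), Rpl21 (8039 and 8056, 0.0030), Rpl10 (6546 and 6711, 0.036), Rps15 and Rpl28 (6321 and 6291, -0.0067). Rpl21 and Rpl28 were among the 19 whose direction depended on the scaling or the probe sets used. The large subunit genes whose values are not given elsewhere were Rpl38 (-0.069), Rpl34 (-0.065), Rpl10a (-0.064), Rpl8 (-0.021), Rpl6 (-0.021), Rpl37a (-0.016) and Rpl9 (0.025).

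The lists by place in the ribosome begin with the small subunit. The body and platform form the lower portion of this subunit, where the mRNA enters and leaves. Of 16 listed genes 10 were measured, all 10 lower (median -0.048), where 66.1% of detected members and 38.4% of all detected genes were lower. They ran from Rpsa through Rps4x and Rps13 to Rps2, which lines the mRNA entry (4330 and 4287, -0.014), and Rps14 (1528 and 1515, -0.012). The others were Rps15a (-0.065), Rps21 (-0.058), Rps6 (-0.038), Rps9, a fidelity protein (-0.032), and Rps7 (-0.032). In the head, 10 of 14 listed genes were measured, 5 lower and 5 higher, with a median of 0.014. They ran from Rps25 and Rps10, through Rps20 (3499 and 3355, -0.060), Rps29 (-0.057) and Rps28 (-0.0075), to Rps18 (0.035), Rps19 (0.044), Rps12, Rps15 and Rps3. The small subunit members on neither list, Rps27l (0.022) and Rps4l (0.20), were both higher. The median of the head turned to -0.013 after centring, -0.0078 with the intensity trend removed and -0.0037 with probe sets averaged, so its direction is not settled. The difference between these places was not tested. After quantile normalization 8 of the 10 body genes were lower and 2 higher, and with the gene span trend removed, or with probe sets averaged, 9 were lower. Admitting probe sets with several symbols brought the body list to 14 genes, 12 of them lower.

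The stalk, which recruits the translation factors, had 4 measured genes, 2 lower and 2 higher. Rplp0 had 5498 and 5676 (0.046), Rplp1 had 4815 and 4869 (0.016), Rplp2 had 148 and 143 (-0.043) and Rpl12, which anchors the stalk base with Rplp0, had 139 and 133 (-0.051). These values depend on the probe sets chosen. The second probe set of Rplp1 gave 1830.4 and 1620.2 (-0.17), and Rpl12 became 0.087 when probe sets with further symbols were admitted.

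Around the exit of the nascent peptide, 5 of 9 listed genes were measured. Of these, 4 were lower (median of the 5 -0.041), where 66.1% of detected members and 38.4% of all detected genes were lower. They were Rpl22 (553 and 530, -0.059), Rpl19 (4500.1 and 4358, -0.046), Rpl23a, the docking point of the signal recognition particle (2114 and 2054, -0.041), Rpl26 (188 and 186, -0.014) and Rpl4, whose loop lines the tunnel (1195 and 1218, 0.027). All 13 probe sets of Rpl23a were lower, between -0.073 and -0.0023. After quantile normalization or with the gene span trend removed, 3 of the 5 genes were lower.

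Genes mutated in Diamond-Blackfan anaemia, an inherited failure of red cell production, form another known group. Of 19 listed genes 9 were measured under the symbol rule, with 7 lower and 2 higher and a median of -0.032. Over all members 66.1% were lower, and over all detected genes 38.4%. With the gene span trend removed 5 were lower and 4 higher. Rps19, the gene most often mutated in it, had 1215 and 1253 (0.044). Rpl5, which with Rpl11 carries the small RNA of the large subunit and restrains Mdm2, had 0.058 on its brightest probe set and between -0.049 and 0.058 over its 5 probe sets. Rps10, Rps15a, Rps29, Rps7, Rpl26 and Rps28 were lower as given for their places in the ribosome, and Rpl27 had 1444 and 1409.9 (-0.034).

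Members with tissue-restricted or retrocopy-like names were near or under the floor, apart from a pair. Rpl3l, the muscle form of Rpl3, had 41.8 and 46.0. Rpl10l, a testis retrocopy of Rpl10, had 36.4 and 37.3, and Rpl39l, another testis form, had 25.7 and 24.2. These 3 lay under the floor on both arrays, so their differences of 0.10, 0.024 and -0.055 could not be told from scatter. Rps27l, a paralog of Rps27 induced by p53, was well above the floor at 1128 and 1146 (0.022). Rpl32l had 505 and 489 (-0.046). Leaving out Rps4l, Rps27l and Rpl32l left a median of -0.032, with 36 genes lower.

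Different probe sets of 1 member are shown next, since they share the same RNA and often sequence, and so are not replicates. Of the 215 member probe sets 211 were above the floor, with 198 distinct pairs of values, so some probe sets repeat others. Among the 211, 137 were lower and 74 higher (median -0.028), where 39.0% of 12513 single-symbol probe sets above the floor were lower. At least 1.1-fold lower were 14 of the 211 (6.64%), near the share of all such probe sets (7.46%). At least 1.1-fold higher was 1 (0.474%), against 13.0% of all such probe sets. Of 38 members with several detected probe sets, 19 had all of them lower, 6 had all higher and 13 had some on each side. Rps12, with 14 probe sets, ran from -0.11 to 0.061, and its 5 brightest held identical values.

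The pooled SD between probe sets of 1 member was 0.042 over 37 genes with distinct values, and that of all other genes 0.097 over 630. The members with the widest ranges were Rps2 (-0.19 to 0.079 over 3 probe sets), Rplp1, Rps25, Rps12 and Rpl13 (-0.048 to 0.088 over 9). The brightest and the dimmest Rps2 probe sets held 4330 and 4287, and 1106 and 965. Probe sets on copies of a gene and on the gene itself cannot be told apart by these files, so a single value per gene carries this uncertainty.

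A further 233 probe sets name a ribosomal protein gene beside other symbols, mostly copies, and fall outside the rule. Above the floor and without a small RNA among their symbols were 225, of which 105 were lower and 120 higher (median 0.0039). They thus did not share the lean to lower values of the 211 single-symbol member probe sets (137 lower, 74 higher). At least 1.1-fold lower were 20 of the 225, and at least 1.1-fold higher were 3. Through them 16 more ribosomal protein genes could be read, all above the floor, with a median of -0.013, of which 9 were lower and 7 higher. The lowest were Rps27, listed with its copy Rps27rt (864 and 741, -0.22), Rps24 (1592 and 1381, -0.20) and Rpl39 (9429 and 8743, -0.11). Both probe sets of Rps27 and all 3 of Rps24 were lower. Rpl11, the partner of Rpl5, had 1729 and 1843 (0.091), and all 6 of its probe sets were higher. Rpl13a had 2918 and 3290.0 (0.17) on a probe set that also lists Zfp526. With these 16 genes added, the median over 72 genes was -0.021, with 46 lower.

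Most members are short genes, and short genes of other kinds also had lower differences on these arrays. Members have a median span of 3.16 kb from start to end, introns included, against 24.9 kb for all detected protein-coding genes. The 1099 other protein-coding genes with a span between 1.496 and 5.198 kb, the 10th and 90th percentiles of the members, had a median of -0.016, with 55.1% of them lower. With the trend over span removed, the median of the members was -0.010, with 30 lower and 26 higher. Across the 56 members, Spearman's rho of the difference was 0.12 with signal and -0.12 with span, and across all detected genes 0.11 and 0.24. These are descriptions across genes of the same 2 arrays.

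The 10 detected members with the pyrimidine start had a median of -0.052 and 9 of them were lower, the exception being Rps18. Over all 56 detected members 66.1% were lower, and over all detected genes 38.4%. The 34 detected members with a RefSeq start and no such pattern there had a median of -0.019 and 21 were lower. The difference was not tested. Since annotated starts can lie some bases from the start in use, the 34 may include genes whose mRNAs have the pyrimidine start.

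**Figure D3:**
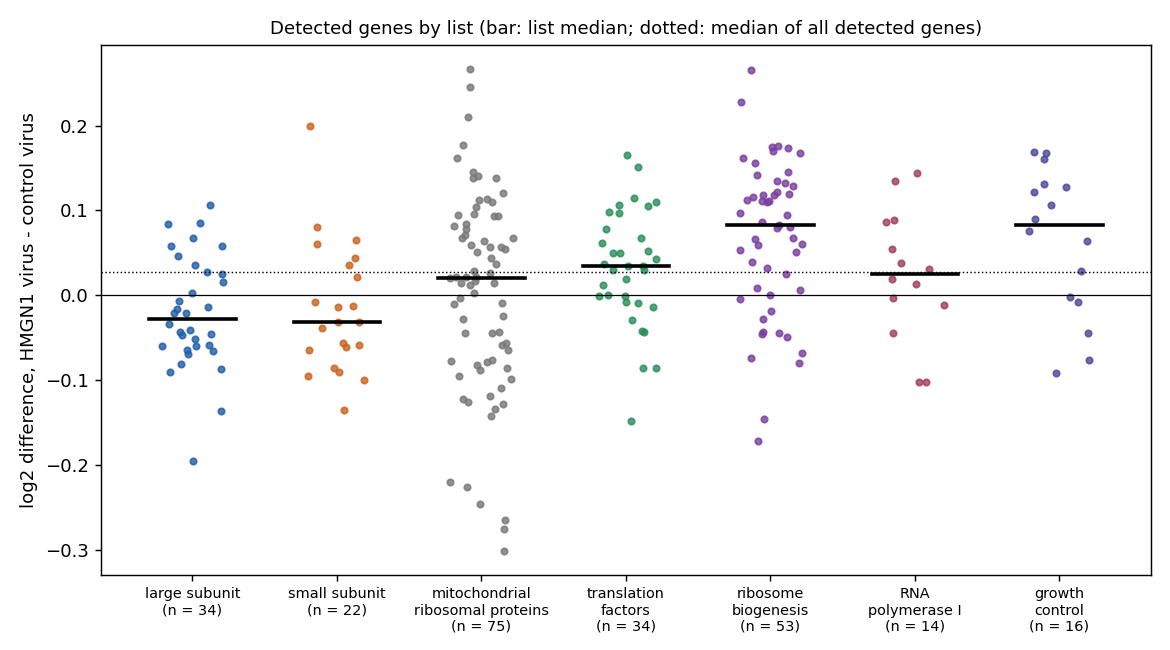
Log2 difference, HMGN1 virus minus control virus, of each detected gene in 7 lists, from the large and small ribosomal subunits to the growth control of ribosomal protein synthesis. Bars are list medians, the solid line is 0 and the dotted line is the median of all detected genes (0.027). The ribosomal protein lists have medians of -0.028 and -0.032, and ribosome biogenesis (0.083) and growth control (0.083) lie above the dotted line.

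Other lists of the ribosome pathway had medians above 0, as did all detected genes (0.027). The medians of RNA polymerase I and of the mitochondrial ribosomal proteins lay below 0.027. Of 53 detected genes for ribosome assembly in the nucleolus 41 were higher and 12 lower (median 0.083), where 60.1% of all detected genes were higher. At least 1.1-fold higher were 11 of the 53 and at least 1.1-fold lower 2, with 13.1% and 7.2% of all detected genes past those sizes. Highest were Bysl, needed for the small subunit (155 and 189, 0.27), and Wdr12, a partner of Pes1 and Bop1 (183 and 217, 0.23). Lowest were Fbl, the methylase of box C/D particles (358 and 316, -0.17), and Rpf2, which helps load Rpl5 and Rpl11 (178 and 159.7, -0.15). The median stayed above 0 under each alternative run.

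Genes of RNA polymerase I, which transcribes ribosomal RNA, had a median of 0.025 over 14 detected genes, from Taf1c (-0.10) and Cd3eap (-0.10) to Polr1d (0.13) and Twistnb (0.14). That median was -0.0020 after centring on all detected genes and -0.012 with the intensity trend removed. Of 34 detected translation factors and related genes 11 were lower (median 0.035), where 38.4% of all detected genes were lower (median 0.027). Eif3d (722 and 811, 0.16) and Eif5b (208 and 233, 0.15) were highest and Btf3 (2064 and 1861, -0.15) and Eif3l (887 and 834, -0.086) lowest. Eef1a1, whose mRNA has the same kind of pyrimidine start as the ribosomal proteins, had 11404 and 12353 (0.12), Eef2 had 5704 and 5670 (-0.0087) and Tpt1 7864 and 7858 (-0.0010).

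Mitochondrial ribosomal proteins, which build a separate ribosome, had a median of 0.020 over 75 detected of 77 genes. Of the 75, 32 were lower and 43 higher, where 38.4% of all detected genes were lower and 60.1% higher. The mitochondrial genes spread more widely than the cytosolic members, from Mrpl57 (392 and 316, -0.30) and Mrpl22 (198 and 161, -0.28) to Mrps10 (236 and 283, 0.25) and Mrpl45 (156 and 190.4, 0.27). The SD of their differences was 0.12 and that of the cytosolic members 0.070. It was 0.061 over the 46 members in the brightest 10% of detected genes, 0.10 over the other 10 members and 0.11 over all detected genes. Signal was not matched between the lists. The sign of the mitochondrial median turned after centring (-0.0072) and with the intensity trend removed (-0.016).

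Among 16 detected genes that control ribosomal protein synthesis in growing cells, 5 were lower and 11 higher (median 0.083). Of all detected genes, 38.4% were lower and 60.1% higher (median 0.027). The list median was 0.056 after centring on all detected genes, 0.045 with the intensity trend removed and 0.036 with the gene span trend removed. Eif4ebp1, a translation repressor that the kinase Mtor inactivates (151 and 171, 0.17), and Mycn, a growth-promoting transcription factor of neural precursors (174 and 198, 0.17), were highest. Rps6kb2, an S6 kinase (267 and 249, -0.091), and Sp1 (346 and 327, -0.076) were lowest. Mtor had 517 and 546 (0.076), Larp1, which binds pyrimidine starts, 678 and 730.4 (0.11), and Myc 755 and 771 (0.029). Of the p53 arm, which free Rpl5 and Rpl11 can activate, Mdm4 (366 and 430.3, 0.23) and Ccng1 (1206 and 1366, 0.18) were higher, Mdm2 had 382 and 393 (0.042) and Bbc3 99.6 and 86.1 (-0.18).

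Ribosomal protein genes with other symbols were also measured. Fau, whose product is cut into a ribosomal protein, had 2392 and 2460.5 (0.041). Rps3a1 had 577 and 529.7 (-0.12) and Rpl7l1, a paralog of Rpl7, 649 and 665 (0.034).

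A wider contrast was seen between the mRNAs and the small nucleolar RNAs that lie within the spans of the members in RefSeq. Small nucleolar RNAs guide modification of ribosomal RNA and most are cut out of introns. Of 11 such RNAs with a single-symbol probe set, in 9 members, all 11 were above the floor, with 10 lower, 1 higher and a median of -0.28. At least 1.1-fold lower were 9 of the 11, against 7.2% of all detected genes. The 9 hosts had a median of 0.027, with 4 lower and 5 higher. RefSeq's table gives no strand, so strand was not used in the match. On the HMGN1 array Snora62 (81.6) and Snord42a (85.7) lay under the floor of 85.9, so both passed only through the control array. With the floor at the 99th percentile 9 of the 11 RNAs remained. Of those 9, 8 were lower, and their median was still -0.28.

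**Figure D4:**
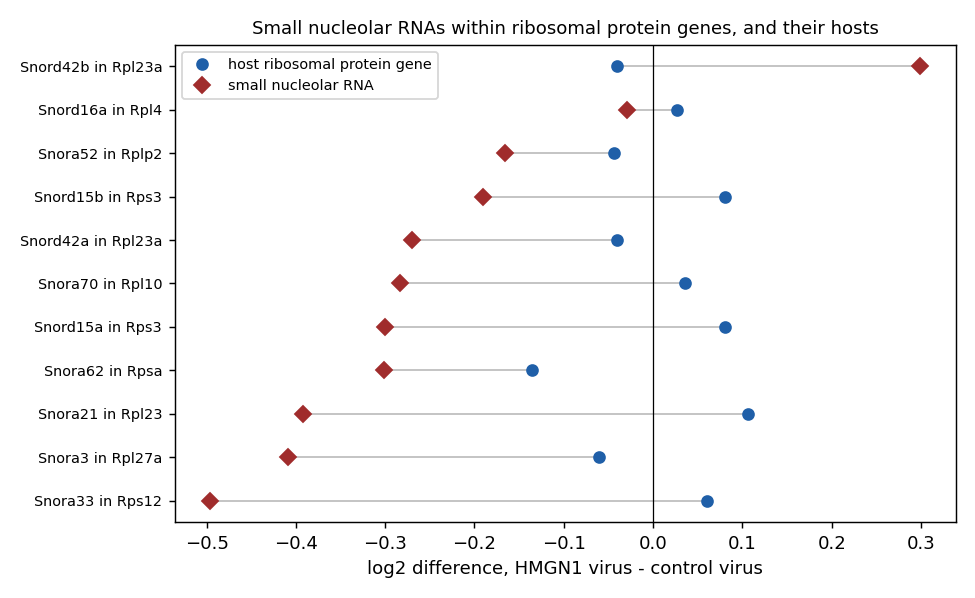
Log2 difference, HMGN1 virus minus control virus, of 11 small nucleolar RNAs (red diamonds) and of the ribosomal protein genes whose span holds them (blue dots), joined by a line. Diamonds lie left of their dot in 10 of 11 pairs, with Snord42b in Rpl23a as the exception.

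Snora33, inside Rps12, had 214 and 147 (-0.50) while Rps12 had 0.061. Snora3, inside Rpl27a, had 1319.7 and 990.3 (-0.41), and Rpl27a itself had 1689.5 and 1620.0 (-0.060). Snora21, inside Rpl23, had 153 and 112 (-0.39), although Rpl23 was the highest host at 0.11. Snora62, inside Rpsa, had 104 and 81.6 (-0.30) with the lowest host value, -0.14.

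Rps3 holds a pair, Snord15a (152 and 120.0, -0.30) and Snord15b (318 and 276, -0.19). Snora70 in Rpl10 had 333 and 271 (-0.28), Snora52 in Rplp2 had 6317 and 5630.4 (-0.17) and Snord16a in Rpl4 had 309 and 302 (-0.030). Rpl23a holds both directions, Snord42a at 107 and 85.7 (-0.27) and Snord42b at 201 and 251 (0.30). The median of RNA minus host over the 11 pairs was -0.27.

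In ribosomal protein genes outside the symbol rule, 6 more small nucleolar RNAs were detected, 5 lower and Snord55 at the same value on both arrays, with a median of -0.39. The lowest was Snord33 in Rpl13a (752 and 468, -0.67). The 28 detected small nucleolar RNAs outside ribosomal protein genes had a median of -0.34, with 27 lower, so those elsewhere were mostly lower too. Gas5, a host transcript that itself has a pyrimidine start and codes for no protein, had 676 and 554 (-0.28). Snhg5, the other of 2 measured genes listed as such host transcripts, had 382 and 378 (-0.016). The small nucleolar RNAs are short, and with the trend over gene span removed, which was fitted on them too, the median of the 11 was -0.17.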

How the data were processed

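In the table the authors deposited, 28944 probe sets have a linear intensity on each of 2 arrays. The sources used here do not give its background correction, normalization or probe summary, and values were used as deposited. Biotin labelling used a whole-transcript kit, per the labels' protocols. The platform annotation held by GEO named the probe sets, 21789 of them with 1 symbol. All 59 members matched RefSeq's GRCm38.p6 gene table by gene number, which gave span and class. Coordinates are those of the RefSeq starts.

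Each gene was read from the probe set with the highest mean log2(intensity + 16). It counted as detected above an intensity of 85.9, the 95th percentile among 1035 probe sets of olfactory receptors. Trends were removed by lowess with a span of 0.3 (statsmodels 0.14.6, Python 3.11.15). With 1 array per virus no test was run and the number of arrays limits the precision. Gene names with values followed a rule by size of difference, signal, spread between probe sets and role. Members and lists were chosen with earlier results of these data known. The code was tested on simulated data.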

Additional observations from a re-analysis of the deposited data

How the results depend on the processing

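No paired analysis was possible because there is a single array per virus, and for the same reason no replicate could be left out. The median of the ribosomal protein genes (-0.032) was -0.0066 after quantile normalization, -0.059 centred on all detected genes, -0.055 with the intensity trend removed and -0.010 with the gene span trend removed. It moved by less than the SD between probe sets over the root of the gene count under the 6 other planned settings and the 3 added after seeing the data (without paralogs, with genes read through several symbols, and with several probe sets only). The count at least 1.1-fold lower, 1, was 2 after quantile normalization, 3 centred, 3 with the intensity trend removed, 2 with an offset of 1, 2 with probe sets averaged, 2 with several-symbol probe sets and 0 at the larger fold (log2 0.32). The count higher, 1, was 0 with an offset of 64, 0 with probe sets averaged, 2 with several-symbol probe sets, 0 with the floor at the 99th percentile and 0 at the larger fold. The large minus small subunit median (0.0039) turned to -0.0065 with the intensity trend removed. The mitochondrial median (0.020) was 0.00047 after quantile normalization and turned to -0.0072 centred and -0.016 with the intensity trend removed. Ribosome biogenesis (0.083) was 0.055 centred, 0.050 with the intensity trend removed, 0.066 with the span trend removed and 0.070 with an offset of 64. Other translation genes (0.035) were 0.0074 centred, 0.0065 with the intensity trend removed and 0.0078 with the span trend removed. Small nucleolar RNAs in members (-0.28) were -0.17 with the span trend removed, -0.31 with an offset of 1 and -0.21 with an offset of 64. The cause was not tested, apart from centring, a change of size, offset or floor, which act by construction. Of 559 values of single members, 5 moved beyond that SD, those of Rplp1, Rps25, Rps4l, Rpl12 and Rpl7a.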
